A study of Mus musculus with 2 samples.

Results

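The genes described here are the replication-dependent histone genes of the mouse, taken as every gene whose symbol in the authors' deposited table begins with Hist1h, Hist2h, Hist3h or Hist4h. The rule found 49 genes, measured by 55 probes, among 30864 features tested in all. A probe entered the comparison if 4 or more of the 8 arrays flagged its signal as well above background, which held for 54 of the 55 probes and for at least 1 probe of each of the 49 genes. By the histone they encode, 6 genes belonged to H1, 14 to H2a, 12 to H2b, 8 to H3 and 9 to H4. The Hist1 cluster on chromosome 13 held 36 of them, the Hist2 cluster on chromosome 3 held 9, the Hist3 cluster on chromosome 11 held 3 and chromosome 6 held 1. The names Hist2h3c2-ps and Hist3h2bb-ps carry the ending used for pseudogenes. All 49 genes have been renamed since the array was designed, Hist1h1b for example to H1f5, and the names of the deposited table are used here.

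The study asked how gene expression in pancreatic islets differed 3 days after an operation that removed 60% of the pancreas. One group was C57BL/6J mice of 8 weeks of age given that pancreatectomy, the other C57BL/6J mice of the same age given a sham operation, and the islets were isolated from both. Total RNA was copied into Cy3-labelled cRNA and hybridised to one-colour Agilent arrays, 4 per group, all on 1 slide. The labels describe 4 replicates for each of the 2 samples and do not say that they came from separate animals, so each p-value reflects the scatter among arrays, part of which may be technical.

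Replication-dependent histones are the core and linker proteins that package newly made DNA, and their genes are transcribed mainly while a cell copies its genome in S phase. Their messages are unusual in ending in a stem-loop, which the protein Slbp binds, in place of a poly(A) tail. H2a, H2b, H3 and H4 form the nucleosome core, around which DNA is wound, and H1 binds the DNA that enters and leaves it. The adult islet is known as a tissue in which few cells divide, and removal of part of the pancreas is a standard way to make the remaining beta cells enter the cell cycle. Low-input linear amplification, the kind of labelling the labels name, generally starts from a primer that anneals to poly(A) tails. Which part of the RNA of these genes was copied was not measured. Many genes of the family encode the same or nearly the same protein, so the signal of one probe can include RNA of a close relative, and the probe sequences were not used here.

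The 75th percentile of the processed signal lay between 178 and 655 over the sham arrays and between 280 and 640 over the pancreatectomy arrays. Sham array 3, at 178, was the dimmest, with 48.1% of all probes well above background against 59.1% to 71.4% on the other 7 arrays, and with 45 of the 55 histone probes against 53 or 54. Sham arrays lay in slide columns 1 and 2 and pancreatectomy arrays in columns 3 and 4, so slide column and group cannot be told apart, while each of the 2 slide rows held both groups. The label of the sham sample lists position 1_2 in place of 2_2, and the array filed at 2_2 was taken as sham array 4. Of 12 islet endocrine markers all 12 were measured and 0 were called, with a summed log2 level of 21.19 to 22.31 in sham and 21.15 to 21.92 after pancreatectomy. Other tissues' transcripts differed between arrays of a group. The summed log2 level of 11 measured liver markers was 17.32 on sham array 4, 17.34 and 16.46 on pancreatectomy arrays 1 and 4, and 12.37 to 12.93 on the other 5 arrays. B and plasma cell markers stood at 13.92 on pancreatectomy array 3 against at most 9.944 elsewhere, and gut markers at 14.34 there against at most 13.72. The summed level of 10 acinar markers was 19.99, 19.33, 17.8 and 19.04 on sham arrays 1 to 4. It was 18.4, 19.31, 20.03 and 19.32 on pancreatectomy arrays 1 to 4.

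The promoters shown first are those of the 2 genes that rose, Hist1h1b and Hist1h2ab. They are joined by Hist1h1a, Hist2h2bb and Hist1h4i, an H1, an H2b and an H4 gene whose differences did not pass the test. The stretch shared by the H2a gene Hist1h2an and the H2b gene Hist1h2bp, which also did not pass, comes last. The sequences are RefSeq's, from the assembly GRCm38.p6, and end at the base before the annotated start of the gene. A RefSeq promoter was matched for 43 of the 49 genes, and Hist1h2bc, Hist1h3a, Hist1h3f, Hist2h2be, Hist2h4 and Hist3h2bb-ps were not matched. Each sequence runs 5′ to 3′ along the strand of the named gene. Capitals mark matches on either strand to the motifs named after the sequences. The windows are chr13:21780626-21780775 on the minus strand for Hist1h1b, chr13:23763518-23763667 on the plus strand for Hist1h1a and chr13:23750938-23751087 on the plus strand for Hist1h2ab. They are chr3:96269550-96269699 on the plus strand for Hist2h2bb, chr13:22041363-22041512 on the minus strand for Hist1h4i and chr13:21787249-21787487 on the plus strand for Hist1h2bp.
Hist1h1b: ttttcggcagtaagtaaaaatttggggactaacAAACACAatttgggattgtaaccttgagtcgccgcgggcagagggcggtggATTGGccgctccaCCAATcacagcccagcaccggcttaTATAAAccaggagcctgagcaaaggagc
Hist1h1a: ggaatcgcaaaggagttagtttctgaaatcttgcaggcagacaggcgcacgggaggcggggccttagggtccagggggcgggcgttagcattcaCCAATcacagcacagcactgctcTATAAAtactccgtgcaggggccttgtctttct
Hist1h2ab: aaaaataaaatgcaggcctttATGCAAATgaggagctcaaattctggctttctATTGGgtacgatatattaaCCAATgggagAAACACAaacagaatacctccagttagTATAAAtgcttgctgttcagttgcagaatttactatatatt
Hist2h2bb: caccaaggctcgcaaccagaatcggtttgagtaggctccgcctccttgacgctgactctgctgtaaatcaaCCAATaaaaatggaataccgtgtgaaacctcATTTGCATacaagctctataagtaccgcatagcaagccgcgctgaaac
Hist1h4i: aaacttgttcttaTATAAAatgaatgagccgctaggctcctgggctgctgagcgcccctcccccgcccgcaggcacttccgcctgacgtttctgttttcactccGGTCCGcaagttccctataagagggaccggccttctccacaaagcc
Hist1h2bp: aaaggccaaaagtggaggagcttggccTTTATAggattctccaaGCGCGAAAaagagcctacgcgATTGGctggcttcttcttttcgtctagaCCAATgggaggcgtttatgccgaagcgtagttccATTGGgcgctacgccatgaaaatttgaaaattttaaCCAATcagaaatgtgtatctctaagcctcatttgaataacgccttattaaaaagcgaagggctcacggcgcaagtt

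The motifs searched on both strands of the 250 bases before each start were the octamer ATTTGCAT, the CCAAT box CCAAT, the TATA box TATAAA, the H1 box AAACACA, the core GGTCCG of the H4 element called site II, and the E2F site as TTTCGCGC, TTTGGCGC or TTTCCCGC. Matches of different motifs overlapped in 1 gene. The octamer, which Oct-1 binds, was present in 7 of 14 H2a and 5 of 9 H2b promoters, in 0 of the 20 promoters of the other types and in 1.61% of 27025 promoters of the same length. A CCAAT box was present before all 6 H1, all 14 H2a and all 9 H2b genes, before 4 of 6 H3 and 2 of 8 H4 genes, and before 34.5% of all genes. The H1 box was present in 5 of 6 H1 promoters against 6.22% of all promoters, and the site II core in 7 of 8 H4 promoters against 6.82%. An E2F site was present before 4 of the 43 genes, namely Hist1h2af, Hist1h2ag, Hist1h2an and Hist1h2bp, against 1.59% of all genes. A match describes these letters only and shows no binding.

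**Figure D1:**
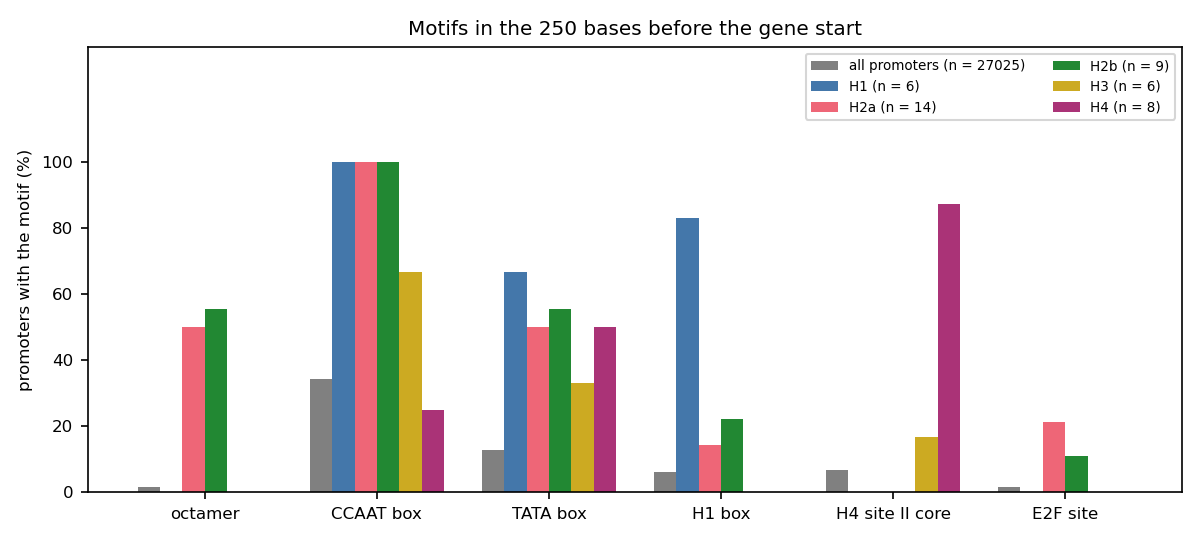
Share of promoters, in percent, that hold each of 6 short motifs in the 250 bases before the gene start, for all 27025 RefSeq promoters (grey) and for the histone genes of each type with a matched promoter. The octamer is seen in 7 of 14 H2a and 5 of 9 H2b promoters, the H1 box in 83.3% of H1 promoters and the site II core in 87.5% of H4 promoters.

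After pancreatectomy the histone genes moved in both directions, and few passed the test. Hist1h1b, which encodes the linker histone H1.5, and Hist1h2ab, which encodes an H2A, rose, and Hist2h2be, an H2B gene known for its expression in olfactory neurons, fell. The other 46 genes did not pass an adjusted p of 0.05 (limma, Benjamini-Hochberg over all 30864 features). The share called was 6.12% of the 49 genes, with 0.629% of all features called, 0.544% higher and 0.0842% lower. Of the 49 differences, 25 were above 0 and 24 below, and they ran from -1.16 to 2.64 on the log2 scale with a median of 0.05, or -0.08 where arrays were scaled to their median. The median over all features was -0.04. The 4 arrays of one group lay wholly above the 4 of the other for 7 genes higher after pancreatectomy and 6 lower, 26.5% of the genes together. Of all features 8.28% were so separated, 2.99% higher and 5.29% lower. An unadjusted p under 0.05 was found for 13 genes higher and 8 lower, where 10.5% of all features had one, 4.22% higher and 6.28% lower.

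Which genes were called depended on the arrays used. Without sham array 2 or without pancreatectomy array 4, 0 histone genes were called higher, and without sham array 1 or sham array 4 the count was 1. Without sham array 3, the dimmest, it was 4, with Hist1h2ag and Hist1h2an added. Without the 4 arrays that carried liver, gut or B-cell transcripts, 3 sham arrays stood against 1 pancreatectomy array, assumed to vary like the others, and 0 of all features were called by limma.

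**Figure D2:**
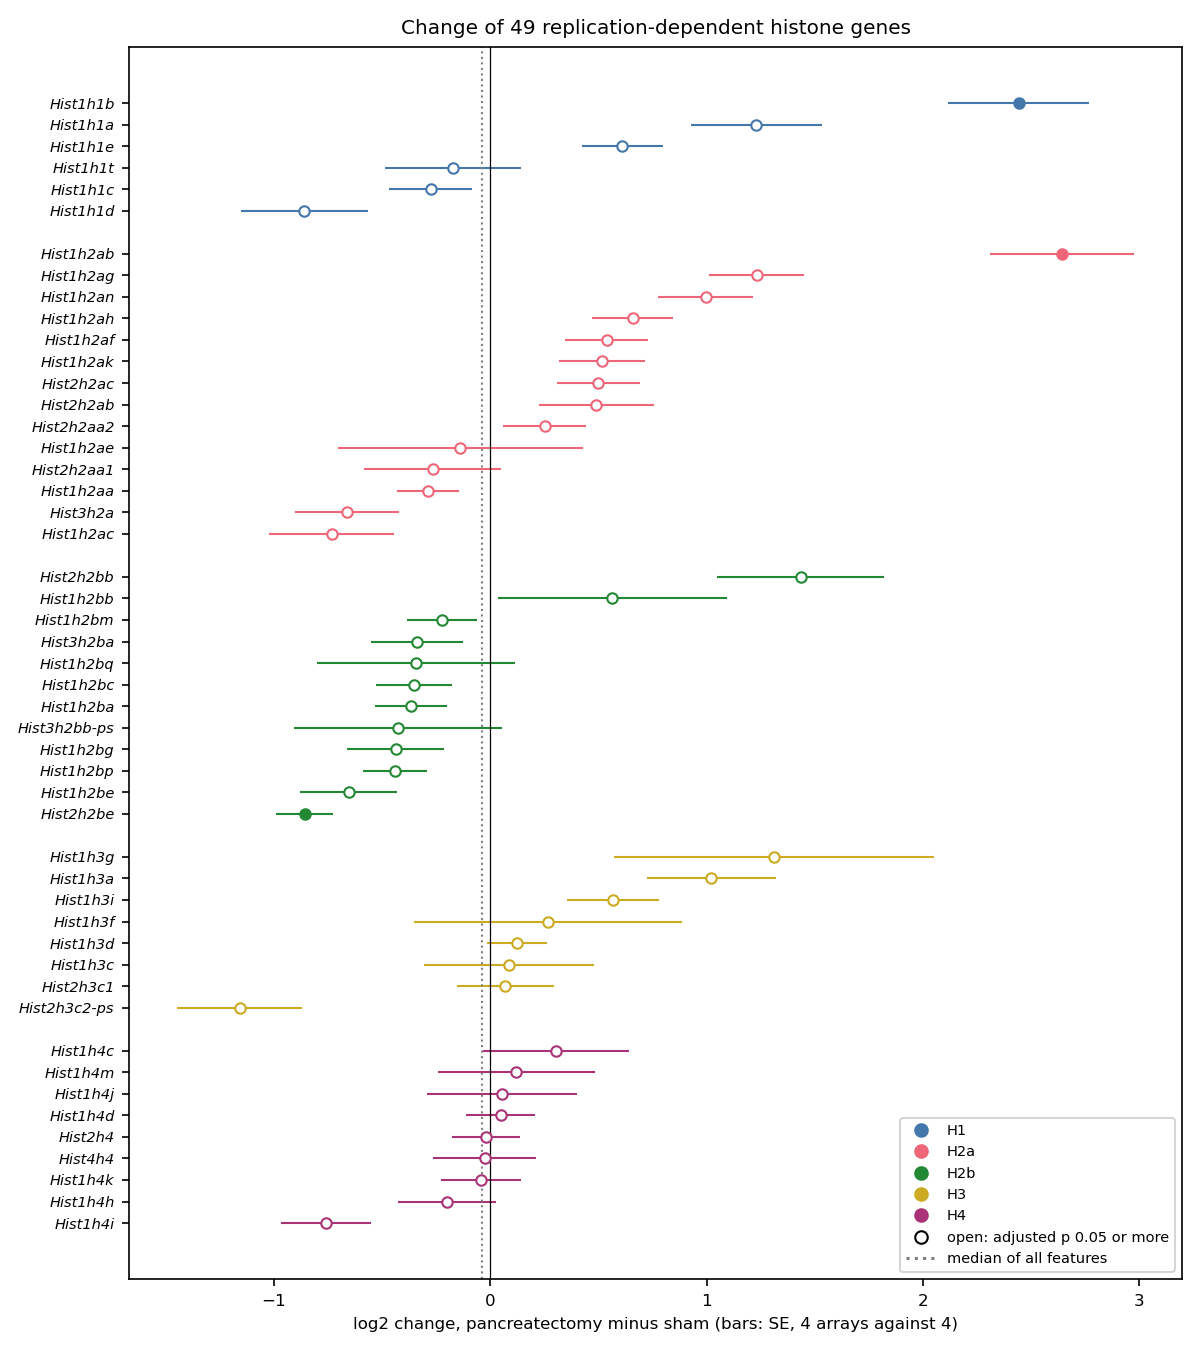
Log2 difference, pancreatectomy minus sham, of each of the 49 genes with its standard error (bars), 4 arrays against 4, ordered within histone type. Filled points mark the 3 genes with an adjusted p under 0.05, and the dotted line is the median of all features at -0.04. The H2a genes reach from -0.73 to 2.64, while 10 of the 12 H2b genes lie below 0.

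Linker histones differed among themselves. Of the 6 H1 genes, 1 was called higher and 0 lower, where 0.544% of all features were called higher. Among the H1 genes 3 had differences above 0 and 3 below. Their median was 0.22, or 0.10 with arrays scaled to their median. Hist1h1b was read by probe A_51_P270949, placed by the array design at chr13:21871923-21871982 on mm9. Its log2 signal was 6.95, 6.83, 7.77 and 7.04 on sham arrays 1 to 4 and 10.34, 8.88, 9.61 and 9.53 on pancreatectomy arrays 1 to 4. Every pancreatectomy array was above every sham array, with sham array 3 the highest of its group and pancreatectomy array 2 the lowest of its own. The difference was 2.44 ± 0.32 (SE, n = 4 and 4), 5.44-fold, with an adjusted p of 0.0161 by limma. Within slide row 1 it was 2.72 and within row 2 it was 2.16. By limma the adjusted p was 0.0641 without sham array 1, 0.0688 without sham array 2, 0.0601 without sham array 4 and 0.0663 without pancreatectomy array 4.

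Hist1h1a encodes H1.1, a subtype found in a limited set of cell types. Its log2 signal was 6.05, 5.52, 6.02 and 5.21 in sham and 7.49, 6.41, 7.28 and 6.54 after pancreatectomy. The groups did not overlap, and the difference of 1.23 ± 0.30 did not pass the test (limma, adjusted p = 0.182). Hist1h1e, which encodes H1.4, stood at 11.67, 11.77, 11.59 and 11.57 in sham and at 12.67, 11.92, 12.06 and 12.40 after pancreatectomy. Here too the groups did not overlap, with a smaller difference of 0.61 ± 0.19 and a limma adjusted p of 0.297. The remaining H1 genes had differences below 0 and overlapping groups. They were -0.17 ± 0.31 for the testis gene Hist1h1t, -0.27 ± 0.19 for Hist1h1c, which encodes H1.2, and -0.86 ± 0.29 for Hist1h1d, which encodes H1.3. Hist1h1d was called lower with array weights, at -0.88, and differed by -0.0299 without the 4 arrays that carried liver, gut or B-cell transcripts. Of the 5 H1 genes whose promoters hold the H1 box, the differences ran from -0.86 to 2.44, and Hist1h1a was the H1 gene without it.

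Among the H2a genes most differences pointed upward. Of 14, 9 had differences above 0 and 5 below, with a median of 0.50, or 0.37 with arrays scaled to their median. Arrays did not overlap for 4 genes higher and 1 lower, where 2.99% of all features were so separated higher and 5.29% lower. In the test 1 gene was called, against 0.629% of all features in either direction. Hist1h2ab was read by probe A_52_P420466 at chr13:23843392-23843451 on mm9. Its log2 signal was 10.19, 9.61, 10.39 and 9.98 in sham and 13.43, 11.82, 12.94 and 12.55 after pancreatectomy. The groups lay well apart, and the lowest pancreatectomy array, array 2, was above the highest sham array, array 3. The difference was 2.64 ± 0.33, 6.24-fold, with an adjusted p of 0.013 by limma, and it was 2.72 in slide row 1 and 2.56 in row 2. Without sham array 2 the limma adjusted p was 0.0565, and without pancreatectomy array 4 it was 0.0554.

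Hist1h2ag came next. Its log2 signal was 14.28, 14.23, 14.97 and 14.19 in sham and 15.88, 15.37, 15.49 and 15.85 after pancreatectomy. The groups did not overlap, sham array 3 stood above the other sham arrays, and the difference of 1.23 ± 0.22 just missed the threshold (limma, adjusted p = 0.0546). It passed with normexp background correction, with probes above background on all 8 arrays, with array weights, with an intensity trend and without sham array 3, where limma gave an adjusted p of 0.0278. The design coordinates of its probe, chr13:23666685-23726365 on mm9, span 59681 bases, where those of the other placed probes named here span 60. RefSeq puts the start of Hist1h2ag at chr13:22042949 on GRCm38.p6, far outside that span. For Hist1h2ah the start is chr13:22035643 on that build, and the probe begins at chr13:22127035 on mm9. Which gene's RNA the Hist1h2ag probe reads was not tested, and its values are given under the deposited symbol.

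Hist1h2an had 13.97, 13.91, 14.68 and 13.86 in sham and 15.32, 14.85, 14.95 and 15.28 after pancreatectomy on the log2 scale. Again the groups did not overlap and sham array 3 was the highest sham array. The difference was 1.00 ± 0.22 with a limma adjusted p of 0.127, and 0.0348 without sham array 3. Hist1h2ah, with a difference of 0.66 ± 0.19 and a limma adjusted p of 0.258, was the other H2a gene whose groups did not overlap. Differences of 0.49 to 0.54 were found for Hist1h2af, Hist1h2ak, Hist2h2ac and Hist2h2ab, and 0.25 ± 0.19 for Hist2h2aa2. A further probe of Hist1h2ak gave 0.91 with groups that did not overlap. With array weights Hist1h2af, Hist1h2ah, Hist1h2ak, Hist1h2an and Hist2h2ac were called higher. That setting called 488 of all features higher and 533 lower, and without the 4 arrays that carried liver, gut or B-cell transcripts these 5 genes differed by 0.26 to 0.67.

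Of the 5 H2a genes with a difference below 0, Hist1h2ac stood at -0.73 ± 0.29 and Hist3h2a at -0.66 ± 0.24. The groups overlapped for both genes. Hist1h2aa, a testis H2A gene, was the H2a gene whose pancreatectomy arrays all lay below its sham arrays, with a difference of -0.29 ± 0.14 and a limma adjusted p of 0.532. Hist1h2ae, at -0.14 ± 0.57, spread over more than the others in sham, from 4.07 on array 3 to 7.27 on array 1.

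Several H2a probes gave nearly the same profile. For Hist1h2af, Hist1h2ag, Hist1h2ah, Hist1h2ak, Hist1h2an, Hist2h2aa2 and Hist2h2ac, picked out after their values were seen, sham array 3 was the highest and sham array 4 the lowest sham array in 7 of 7. After each group's mean was taken off, Pearson's r between pairs of these 7 genes over the 8 arrays was 0.90 to 1.00 with a median of 0.98, and over all 91 pairs of H2a genes the median was 0.41. These r describe 8 shared arrays with the same scaling. They cannot show whether the probes read separate genes or RNA of the same ones.

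**Figure D3:**
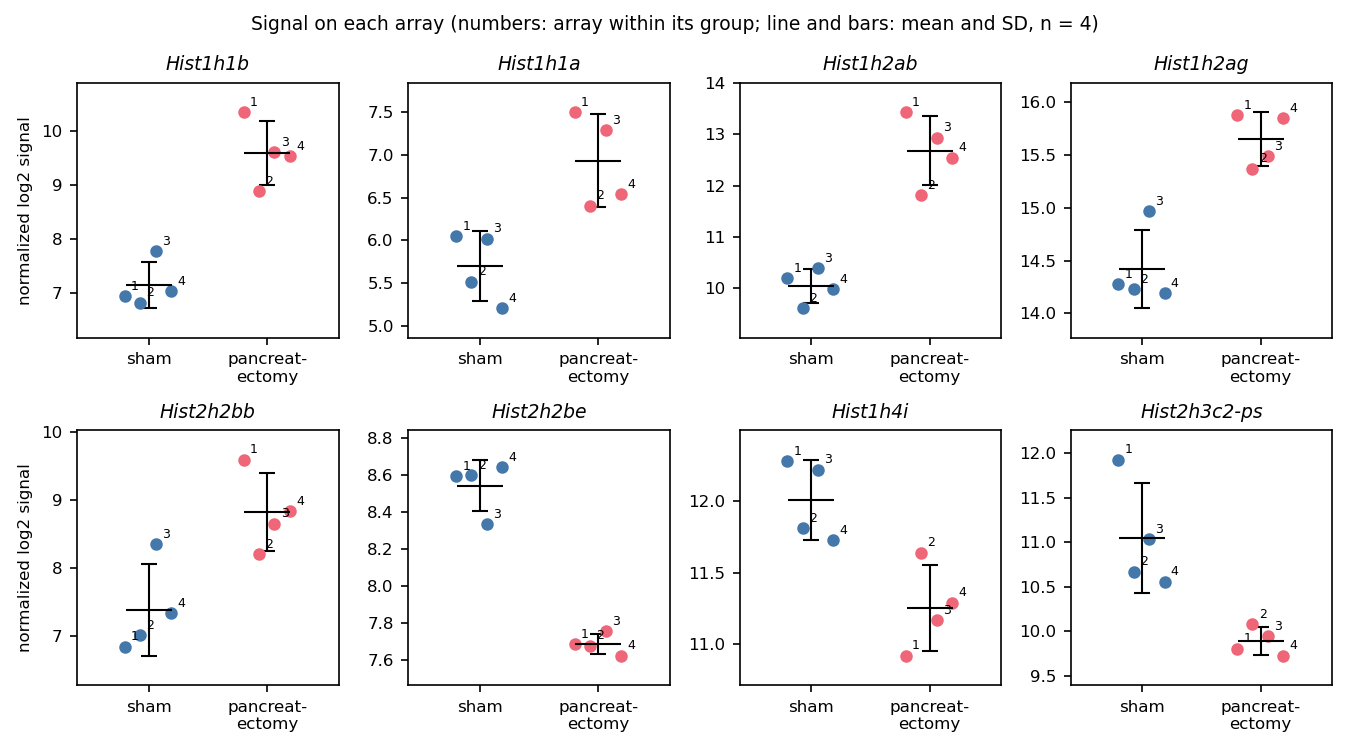
Log2 signal of 8 of the genes on each of the 8 arrays, numbered within their group, with the mean and SD (n = 4); each panel has its own axis, which does not start at 0. The pancreatectomy arrays lie above all sham arrays for Hist1h1b, Hist1h1a, Hist1h2ab and Hist1h2ag and below them for Hist2h2be, Hist1h4i and Hist2h3c2-ps, and the groups overlap for Hist2h2bb.

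Most H2b genes lay lower after pancreatectomy, by small amounts. Of 12, 10 had differences below 0 and 2 above, with a median of -0.36, and 1 was called lower and 0 higher. Of all features, 16942 of 30864 were below 0 and 0.0842% were called lower. Hist2h2be was read by probe A_55_P2177488 at chr3:96026893-96026952 on mm9. Its log2 signal was 8.59, 8.60, 8.33 and 8.64 in sham and 7.68, 7.68, 7.76 and 7.62 after pancreatectomy. The pancreatectomy arrays lay close together and all below the lowest sham array, array 3. The difference was -0.86 ± 0.13, 1.81-fold lower, with a limma adjusted p of 0.0301, and it was -0.91 and -0.80 within slide rows 1 and 2. It remained called in 7 of 19 alternatives, and without any 1 array other than sham array 3 the limma adjusted p was 0.0683 to 0.146. With normexp background correction it was -0.64 with a limma adjusted p of 0.25.

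Hist1h2be, at -0.65 ± 0.22, was the next lowest H2b gene, with overlapping groups. Hist1h2bp and the testis gene Hist1h2ba had pancreatectomy arrays wholly below the sham arrays, with differences of -0.44 ± 0.15 and -0.36 ± 0.17. Neither passed the test (limma, adjusted p = 0.364 and 0.493). Hist1h2bc differed by -0.35 ± 0.18 with overlapping groups. The pair of H2b genes with differences above 0 were Hist2h2bb and Hist1h2bb. Hist2h2bb had 6.84, 7.02, 8.36 and 7.34 in sham and 9.59, 8.21, 8.65 and 8.84 after pancreatectomy. Sham array 3 stood above pancreatectomy array 2, and the difference of 1.43 ± 0.39 did not pass the test (limma, adjusted p = 0.228) but was called with array weights, at 1.80. Without the 4 arrays that carried liver, gut or B-cell transcripts, Hist2h2bb differed by 0.80. For Hist1h2bb the difference was 0.56 ± 0.53, with sham array 3 at 4.75 and the other 7 arrays between 6.97 and 7.40. Of the H2b differences below 0, that of Hist1h2bm was nearest to 0, at -0.22 ± 0.16.

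H2a and H2b genes often stand head to head, and 3 such pairs with starts within 500 bases of each other could be read. The starts of Hist1h2an and Hist1h2bp lie 240 bases apart on GRCm38.p6, and the sequence printed for Hist1h2bp is what lies between them. Their differences had opposite signs, 1.00 and -0.44. The Hist1h2an probe is among the H2a probes with nearly the same profile, so its signal may include RNA of other H2a genes. The H2a minus H2b difference shifted by 1.43 after pancreatectomy, with p = 0.0286 by the exact two-sided permutation test over the 8 arrays, the smallest that 4 against 4 can give, and 0.0858 after Benjamini-Hochberg adjustment over the 3 pairs. For Hist1h2ae and Hist1h2bg, 180 bases apart, the differences were -0.14 and -0.44, and the shift between them was 0.30 (exact permutation p = 0.829). For the testis genes Hist1h2ba and Hist1h2aa, 281 bases apart, they were -0.36 and -0.29 (exact permutation p = 0.657, adjusted p = 0.829).

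On the pancreatectomy arrays the H2a medians lay above and the H2b medians below the sham mean. Relative to the sham mean of each gene, the median H2a log2 signal was -0.02, -0.18, 0.48 and -0.19 on sham arrays 1 to 4 and 0.66, 0.28, 0.30 and 0.61 on the pancreatectomy arrays. Sham array 3 lay above pancreatectomy arrays 2 and 3, so the medians of the groups overlapped. The median H2b signal was 0.14, -0.04, 0.08 and -0.16 on the sham arrays and -0.48, -0.16, -0.28 and -0.40 on the pancreatectomy arrays. Pancreatectomy array 2 was level with sham array 4 and the other 3 lay below all sham arrays. In each alternative run, the H2a median was above 0 and the H2b median below 0.

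**Figure D4:**
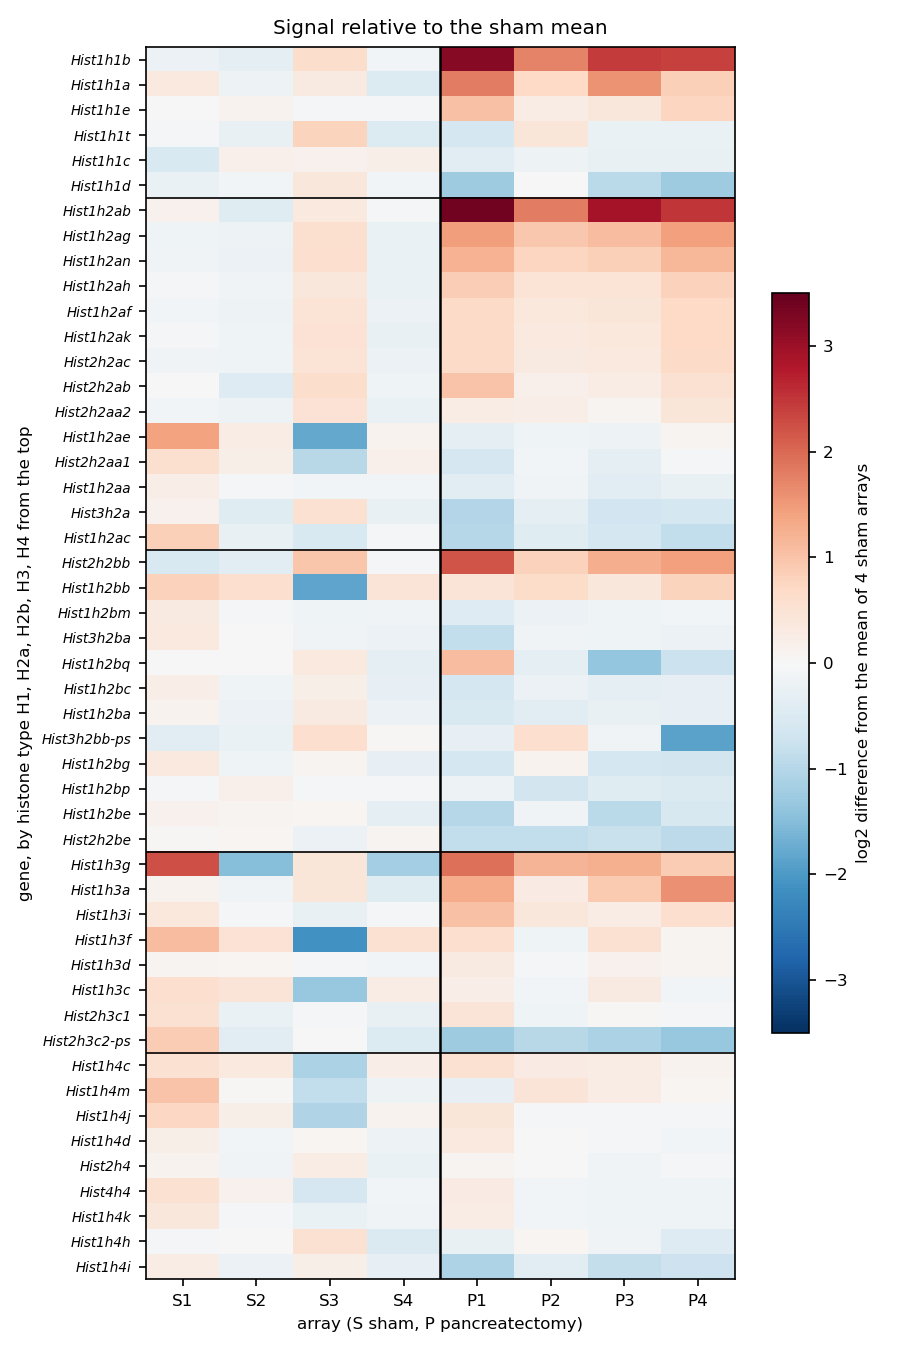
Log2 signal of each of the 49 genes on each array relative to the mean of its 4 sham arrays, with the genes grouped by histone type from H1 at the top to H4 at the bottom. Red is above and blue below the sham mean. Hist1h1b and Hist1h2ab stand out on all 4 pancreatectomy arrays, and sham array 3 departs from the other sham arrays, upward in most H2a genes and downward in several H2b, H3 and H4 genes.

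None of the 8 H3 genes was called. An unadjusted limma p under 0.05 was found for 2 higher and 1 lower, against 4.22% and 6.28% of all features. For 7 of the H3 genes the difference was above 0 and for 1 below, with a median of 0.20. The H3 median was 0.46 without sham array 1, 0.34 without sham array 2, 0.31 without sham array 4, 0.0829 without sham array 3 and 0.11 without pancreatectomy array 1. Hist1h3g had the highest, 1.31 ± 0.74, from sham arrays at 5.98, 2.25, 4.15 and 2.55 and pancreatectomy arrays at 5.66, 4.92, 4.97 and 4.63. It was well above background on 1 of 4 sham arrays and on all 4 pancreatectomy arrays, and sham array 1 was the highest of the 8. Hist1h3a had 4.73, 4.47, 5.003 and 4.16 in sham and 5.89, 4.88, 5.51 and 6.18 after pancreatectomy, a difference of 1.02 ± 0.30 with a limma adjusted p of 0.275. It was called with array weights, at 1.24, and differed by 0.15 without the 4 arrays that carried liver, gut or B-cell transcripts. Hist1h3i differed by 0.57 ± 0.21, and Hist1h3d by 0.12 ± 0.14.

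The lowest difference of all 49 genes was that of Hist2h3c2-ps, whose current symbol is H3c15 and whose probe has no design coordinates on mm9. Its log2 signal was 11.93, 10.67, 11.04 and 10.56 in sham and 9.81, 10.08, 9.95 and 9.73 after pancreatectomy. All pancreatectomy arrays were lower than all sham arrays, with sham array 1 the highest. The difference of -1.16 ± 0.29 had a limma adjusted p of 0.189. Hist2h3c1, a neighbour in the Hist2 cluster, differed by 0.07 ± 0.22.

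Among the 9 H4 genes 0 were called, and by unadjusted limma p 1 was lower under 0.05, where 6.28% of all features were. The median difference of the H4 genes was -0.02, with 4 above 0 and 5 below. It was -0.14 with arrays scaled to their median and 0.03 with quantile scaling. The encoded H4 protein is the same for most of these genes. Hist1h4i stood apart from the others, with 12.28, 11.81, 12.22 and 11.73 in sham and 10.92, 11.64, 11.17 and 11.29 after pancreatectomy. The groups did not overlap, pancreatectomy array 2 came closest to sham, and the difference of -0.76 ± 0.21 had a limma adjusted p of 0.237. Its other kept probes gave -0.43 and -0.18 with overlapping groups. Hist1h4c had the largest difference above 0, 0.30 ± 0.34, followed by Hist1h4m at 0.12 ± 0.36 and Hist1h4j at 0.05 ± 0.35. Hist1h4h was at -0.20 ± 0.23.

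Probes of 1 gene disagreed in sign for Hist1h4k and Hist2h4. For Hist1h4k, the brightest probe gave -0.04 and the other 0.14. For Hist2h4 the brightest gave -0.02 ± 0.16 and the other 0.62. The 1 histone probe that was not kept belonged to Hist4h4 and was well above background on 0 of 8 arrays, while its kept probe gave -0.03 ± 0.24. In bulk islet RNA, a change in the number of cells that carry a message and a change in the amount per cell cannot be told apart for any of these genes.

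Genes of histone message production, from transcription and its cell cycle regulators to 3′ end processing, were compared next. Of 29 listed, 28 were measured and 0 were called by limma, against 0.629% of all features. At an unadjusted limma p under 0.05, 3 were higher and 1 lower, against 4.22% and 6.28% of all features. The median difference of the list was -0.09. Slbp, which binds the stem-loop, stood at 6.88, 7.10, 7.37 and 7.17 in sham and at 7.80, 6.80, 7.26 and 7.65 after pancreatectomy. Its groups overlapped and the difference was 0.24 ± 0.23, while its other probe gave 0.46 ± 0.20. Npat, the cyclin E substrate that turns on histone transcription, differed by -0.06 ± 0.60 and was well above background on 2 of 4 arrays in each group. Casp8ap2, a partner of Npat at the histone locus body, had sham arrays at 6.93 to 7.21 and pancreatectomy arrays at 7.37 to 7.44, which did not overlap. Its difference of 0.31 ± 0.13 had a limma adjusted p of 0.448, and its other probe gave -0.17. Lsm11, a protein of the U7 particle that cuts the 3′ end, differed by 0.21 ± 0.30, and Zfp473, another U7 factor, by 0.24 ± 0.22. The list's largest differences, named after their values were seen, were those of Cdk2 and Ccne1, a kinase and its cyclin that act on Npat. Cdk2 differed by 1.09 ± 0.24 with groups that did not overlap (limma, adjusted p = 0.129). Its sham arrays were dim, at 3.465 to 4.131, and 3 of 4 were well above background. Ccne1 differed by 0.78 ± 0.23 with groups that overlapped (limma, adjusted p = 0.282), and its other probe gave 1.14 ± 0.36.

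Histone chaperones carry new histones to DNA. Of 22 listed, all 22 were measured, and 2 were called higher and 0 lower, where 0.544% of all features were called higher. The median of the list was 0.10, or -0.02 with arrays scaled to their median. Asf1b, the proliferation-linked carrier of H3 and H4, stood at 7.21, 6.61, 6.39 and 7.23 in sham and at 10.57, 9.08, 9.45 and 10.12 after pancreatectomy. The groups lay far apart and the rise was 2.95 ± 0.35 with a limma adjusted p of 0.00915. Chaf1a, the large subunit of the CAF-1 assembly complex, had 5.29, 5.29, 6.03 and 5.83 in sham and 8.18, 7.03, 7.38 and 8.12 after pancreatectomy. It rose by 2.07 ± 0.30 (limma, adjusted p = 0.0235), with sham array 3 the highest of its group and no overlap. Chaf1a was no longer called without sham array 1, 2 or 4 or without pancreatectomy array 1 or 4, where the limma adjusted p was 0.0642 to 0.103. It also lost its call with no scaling (limma, adjusted p = 0.538), with no filter (0.0753) and with normexp, where it differed by 1.25 (0.217).

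Chaf1b, the middle CAF-1 subunit, depended on the probe. The brightest gave 0.17 ± 0.48, from 11.18 on sham array 3 and 12.72 to 13.72 on the other 7 arrays. Another of its 3 probes gave 1.64 ± 0.26 with a limma adjusted p of 0.0329 where every kept probe was tested on its own, and the third gave -0.24 ± 0.31. In the same test a probe of Hjurp, the chaperone of Cenpa, gave 1.31 with a limma adjusted p of 0.0426, while the brightest Hjurp probe gave 0.62 ± 0.22. The histone chaperone Nasp differed by 0.57 ± 0.14 with groups that did not overlap and a limma adjusted p of 0.184, and its other probes gave -0.07 and -0.20. Hat1, which acetylates new H4, differed by 0.58 ± 0.28.

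Histone variants listed as independent of replication followed. Of 18 listed, 14 were measured, and 1 was called higher and 0 lower, where 0.544% of all features were called higher. The median of the list was 0.08, or -0.04 with arrays scaled to their median. The one called was Cenpa, the H3 of the centromere, at 5.17, 4.77, 4.22 and 5.26 in sham and 9.83, 7.46, 8.41 and 8.01 after pancreatectomy. It rose by 3.57 ± 0.48 with a limma adjusted p of 0.0161, and every pancreatectomy array was above every sham array. Without sham array 1, sham array 2 or pancreatectomy array 4, its limma adjusted p was 0.0525, 0.0688 and 0.057. With normexp Cenpa differed by 2.28 with a limma adjusted p of 0.0755, and it was not called with no scaling (0.092) or no filter (0.055). Of the variants that did not pass, H2afx stood at 0.28 ± 0.19, H2afz at 0.27 ± 0.16, H3f3a at 0.10 ± 0.14, H3f3b at -0.12 ± 0.13 and the linker histone H1f0 at 0.07 ± 0.22.

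**Figure D5:**
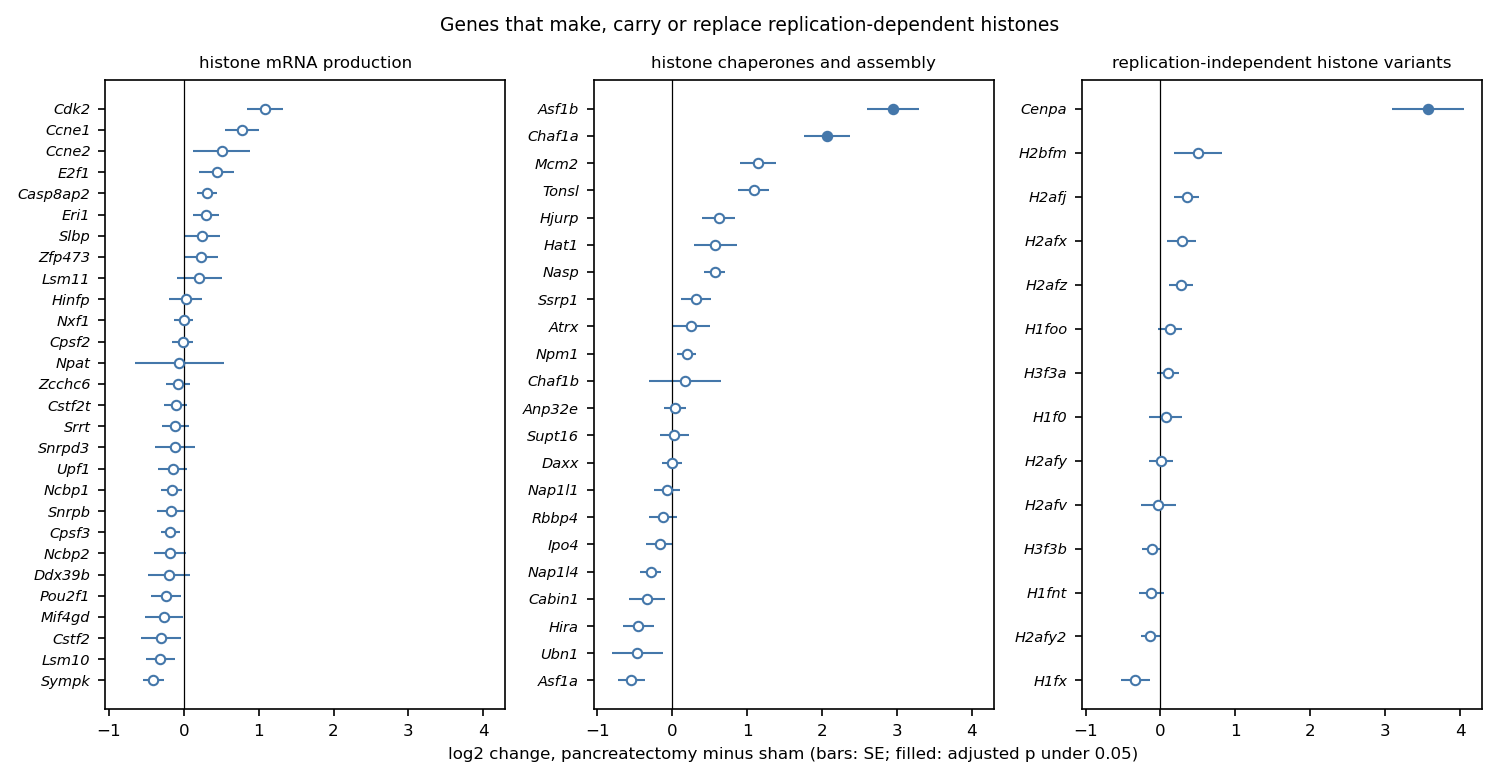
Log2 difference, pancreatectomy minus sham, with its standard error (bars). Genes of histone message production are on the left, histone chaperones in the middle and histone variants listed as independent of replication on the right. Filled points mark an adjusted p under 0.05, which Asf1b at 2.95, Chaf1a at 2.07 and Cenpa at 3.57 reached and no other gene shown did.

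A list of 22 genes, called the S phase genes here, served as the reference for DNA replication in the same arrays. It includes the general markers of cycling cells Mki67 and Top2a, whose differences of 3.91 and 4.18 were its largest. All 22 had differences above 0 and 13 were called higher. For all features, 13922 of 30864 differences were above 0 and 0.544% were called higher. The median of the list was 1.24, where that of the 49 histone genes was 0.05. The count called was 7, 5 and 8 without sham array 1, 2 or 4, and 7, 8 and 6 without pancreatectomy array 1, 3 or 4. Its median by array relative to the sham mean was 0.06, -0.05, 0.00 and 0.05 in sham and 1.56, 0.88, 1.10 and 1.62 after pancreatectomy, so pancreatectomy array 2 was the lowest of its group and the groups did not overlap. Mki67, a marker of cycling cells, rose by 3.91 ± 0.35 (limma, adjusted p = 0.00725), and Pcna, the replication clamp, differed by 0.98 ± 0.20 (limma, adjusted p = 0.101). The list was chosen with earlier results of these arrays known, so its direction is no independent evidence. The difference between the lists was not tested.

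Markers of other cells moved on some of the same arrays. The summed log2 level of 8 of 8 fibroblast and stellate markers was 12.6 to 13.52 in sham and 13.06 to 16.86 after pancreatectomy, highest on pancreatectomy arrays 1 and 3. For 9 of 10 macrophage markers it was 13.66 to 13.87 and 13.26 to 14.6, and for 7 of 9 erythroid markers 14.01 to 14.52 and 14.81 to 15.72. None of these lists had a gene called by limma. Their part in the histone values was not tested. On pancreatectomy array 2, fibroblast, macrophage, liver and B-cell levels were within or below the range of sham. Erythroid, endothelial and Schwann markers were at their highest there, at 15.72, 14.95 and 11.05, against at most 14.52, 14.88 and 10.71 in sham. On that array Hist1h1b was at 8.88 against at most 7.77 in sham, and Hist1h2ab at 11.82 against at most 10.39. How these marker levels bear on either gene was not tested.

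The authors' deposited table, which holds 1 average per group, gave a pancreatectomy minus sham difference of the same sign for 49 of 49 genes, within 0.0057 of the values above. Those averages come from the same arrays, so the match checks the processing only and is no independent evidence.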

How the data were processed

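Cy3 arrays of islet RNA were compared, 4 per group. The deposited scanner output gives an intensity per spot. Feature Extraction made it, in version 10.7.3.1 by the file headers and 9.1 by the submitters' processing notes. Per the file headers, that software subtracted background and set the flags for saturation, outliers and signal over background. The authors' deposited table holds 1 intensity and 1 log2 average per group, made with GeneSpring GX 12.5 per the file headers. It gave gene symbols and a check of differences, and no test.

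Each array had 59305 spots for 55681 probes after control spots were left out. Spots flagged as outliers numbered 113 to 228 per array, 0 of them in histone probes, and were dropped, and 0 spots were saturated. The log2 processed signal was shifted by each array's 75th percentile. Probes with gIsWellAboveBG of 1 on at least 4 of 8 arrays and at least 3 values per group were kept, and a gene was read by its brightest kept probe. limma 3.58.1 (R 4.3.3) tested the differences by its moderated linear model. P-values were adjusted by Benjamini-Hochberg over 30864 features, with a threshold of 0.05. The number of arrays limits the precision. In data simulated from these arrays with 200 of 30767 features changed, 29.9% of log2 changes of 1, 77.6% of 2 and 90.9% of 3 were recovered, with 3 false calls.

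Histone type was read from the symbol. Named are all genes past the threshold, in each type the 3 highest, the 2 lowest and the brightest gene, genes whose probes differ in sign, genes called in an alternative, and a set of genes from the related lists, which were written by hand. The members and lists were chosen with earlier results of these data known. Hist1h2ae, Hist1h2bg, Hist1h2aa, Hist1h2ba and other genes described with their arrays or a neighbour were added after their values were seen. Probe coordinates are the array design's on mm9, while promoters are from RefSeq on GRCm38.p6 and were matched by Entrez gene ID. For 1 gene with several windows the first was used. The alternatives changed the scaling, background correction, filter, probe choice, slide row, array weights, variance trend and arrays used. Normexp, with an offset of 50, used the median signal, since the mean signal was not among the columns read here.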

Additional observations from a re-analysis of the deposited data

Results flagged for a closer look

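In 16 of the 98 groups of 4 arrays, 1 array stood apart from the other 3 by Dixon's criterion. Independent, normally distributed values would give about 1 group in 20. The 98 groups share 8 arrays and are not independent. The share over all features was not computed, so the count cannot be read as particular to histone genes. Sham array 3, the dimmest, accounted for 7 of them, pancreatectomy array 1 for 4, sham array 1 for 3, and sham array 2 and pancreatectomy array 2 for 1 each. On sham array 3 the log2 signal was above that of the other sham arrays for 4 H2a genes, at 14.97 for Hist1h2ag, 14.68 for Hist1h2an, 15.94 for Hist1h2af and 15.73 for Hist2h2ac. It was below them at 4.748 for Hist1h2bb, 8.334 for Hist2h2be and 8.522 for Hist1h3c. Pancreatectomy array 1 was the highest of its group for 3 H4 genes, at 9.965 for Hist1h4j, 11.27 for Hist4h4 and 14.27 for Hist1h4k, and the lowest for Hist3h2ba at 11.25. Sham array 1 was the lowest for Hist1h1c at 12.56 and the highest for Hist1h2aa at 8.082 and Hist1h2bm at 13.69. Sham array 2 was the highest for Hist1h2bp at 6.533, and pancreatectomy array 2 for Hist1h2bg at 7.456.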

How the results depend on the processing

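Scaling arrays to their median moved the median of all features from -0.04 to -0.16, and with it the medians of H1 to 0.10, the chaperones to -0.0221, the message genes to -0.21 and the variants to -0.0398. With no scaling, 0 histone genes were called higher and 0 lower, 0 chaperones, 0 variants and 1 S phase gene, while limma called 18 of all features. Normexp left 0 histone genes lower, 1 chaperone and 0 variants. With no filter, 1 histone gene was called higher and 0 lower, with 1 chaperone, 0 variants and 7 S phase genes. Probes above background on all 8 arrays left 0 variants, as Cenpa was not tested. The slide row as a block left 0 histone genes lower and 7 S phase genes. Array weights called 11 histone genes higher and 2 lower, 5 chaperones (median -0.0069), 2 message genes (median 0.0045) and 20 S phase genes, with 488 of all features called higher and 533 lower. Without the 4 arrays that carried other tissues' transcripts, limma called 0 histone genes higher and 0 lower, 0 chaperones, 0 variants and 0 S phase genes, and the medians were 0.21 for H2a and 0.88 for S phase genes. Testing every probe called 4 chaperones, with medians of 0.0019 for variants and 1.604 for S phase genes.

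Leaving out 1 array gave 0 to 4 histone genes higher and 0 to 1 lower, with medians of -0.12 to 0.15 for all, 0.19 to 0.34 for H1, 0.39 to 0.67 for H2a, -0.44 to -0.28 for H2b, 0.0829 to 0.46 for H3 and -0.12 to 0.11 for H4. It gave 1 to 3 chaperones higher and 0 lower (median 0.0303 to 0.17), 0 message genes in either direction (-0.15 to 0.0322), 0 to 1 variants higher and 0 lower (0.02 to 0.13), and 5 to 15 S phase genes higher and 0 lower (1.12 to 1.38). The causes of these shifts were not tested. No called histone gene changed sign. Hist1h1b ranged from 1.70 to 2.80 and was called in 12 of 19 alternatives, Hist1h2ab from 1.75 to 3.07 in 15 of 19, and Hist2h2be from -0.98 to -0.64 in 7 of 19. No paired analysis was possible because the labels give each group 1 sample and no replicate numbers that pair arrays.

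Probes near background, such as those of Hist1h3g, and the dim sham array 3 limit what small differences can show. Sham array 3 also had the highest summed islet endocrine level of the 8 arrays, 22.31, and the lowest acinar level, 17.8. The part of either in its histone values was not tested.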
